A study of Mus musculus with 4 samples.

Results

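The genes described here encode the enzymes that build cholesterol and long fatty acids, together with the proteins that control them. They were chosen by name, 34 in all, and read through the probe annotation of the array. Of these, 33 had a probe set named for that gene alone and 32 passed the expression filter, out of 19938 genes with a probe set and 11013 kept. The sterol arm held 17 kept genes, 6 for the mevalonate steps and 11 for the squalene and sterol steps. The fatty acid arm held 10 kept genes of 12 chosen, 3 for synthesis and 7 for desaturation and elongation, and 5 genes encode SREBP control proteins. Acacb, encoding the mitochondrial acetyl-CoA carboxylase, lay below the filter, with log2 values of 6.28 to 6.53. Acsl3, an acyl-CoA synthetase gene, shares its probe set's annotation with another symbol and was not used.

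RNA came from fetuses of C57BL/6J mice, an inbred strain, on embryonic day 18. The dams had received ethanol at 2.9 g per kg of body weight daily as a 15% (v/v) solution into the stomach, or phosphate-buffered saline (PBS) by the same route, on 5 days from embryonic day 8 to 12. Forebrain and hippocampus were each measured on 1 array after PBS and 1 array after ethanol, 4 groups in all, so that a difference between a pair of arrays carries no p-value and no measure of replicate error. The labels do not say whether embryos were pooled or which litters they came from, and litter, fetal sex and array cannot be told apart from treatment. All values are the authors' deposited log2 expression values, and a difference is a difference of log2 values.

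Medians over all 35557 probe sets were 7.11 to 7.13, but over the 11013 kept genes the median was 8.57 for hippocampus after ethanol against 8.66 to 8.67 on the other arrays. Shifting each array to a common median therefore moved the median ethanol difference in hippocampus over all kept genes from -0.08 to 0.02. On the deposited scale 69.3% of all kept genes read lower after ethanol in hippocampus, against 43.6% after that centring and 54.8% after quantile normalization. Counts and medians in hippocampus are therefore given on these scales too where they turn. Of 12 kept markers of hippocampal fields, 7 were higher in hippocampus than in forebrain after PBS and 6 after ethanol (7 when centred). Medians were 0.02 and -0.03 (0.03 and 0.06 when centred), so by count and median this list did not set the 2 tissue labels apart. Singly, after PBS 3 of the 12 were at least 1.2-fold higher in hippocampus, Neurod6 (0.48), Zbtb20 (0.35) and Emx2 (0.33), against 3.16% of all kept genes. As much lower were 2, Calb1 (-0.58) and Lhx9 (-0.46), against 6.46%. After ethanol 0 were as much higher (2.15% of all kept genes) and 1 as much lower (9.85%), with Zbtb20 at 0.23. Ganglionic eminence and striatum markers were higher on the hippocampus array after ethanol than after PBS for 9 of 9 genes (median 0.46), and than on the forebrain array after ethanol for 9 of 9 (median 0.35). These are bulk tissues, so fewer cells of a type and less RNA per cell cannot be told apart.

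The brain makes nearly all of its own cholesterol, because lipoproteins of the blood do not cross its barrier. Acetyl-CoA is turned into mevalonate, isoprenoid units and farnesyl diphosphate, then into squalene, lanosterol and cholesterol, while the fatty acid arm turns acetyl-CoA into palmitate that is elongated and desaturated for membranes. SREBP transcription factors drive both arms. SCAP carries them from the endoplasmic reticulum to the Golgi when sterols are low, and the INSIG proteins hold SCAP back when sterols are plentiful.

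Promoters of these genes are known for binding sites of SREBPs and of NF-Y, a factor that works beside SREBPs. RefSeq promoter sequences (build GRCm38.p6), from 250 bases before to 50 bases after the start, were at hand for 28 of the 34 genes. The motifs searched on both strands were TCACNCCA, a sterol regulatory element, CCAAT, the NF-Y box, and CACGTG, an E-box that SREBPs and other factors can bind. The 200 bases before the start are printed for 6 genes, with matches to these motifs in capitals (ATTGG is CCAAT on the opposite strand). Hmgcs1 (chr13:119690151-119690350, plus strand) and Srebf2 (chr15:82147069-82147268, plus strand) hold the sterol regulatory element. Idi1 (chr13:8885406-8885605, plus strand) had the highest mean ethanol difference. Insig1 (chr5:28071212-28071411, plus strand), Hsd17b7 (chr1:169969206-169969405, minus strand) and Elovl5 (chr9:77917165-77917364, plus strand) hold an E-box. Like 20 of the 32 kept genes of the pathway and 50.2% of all kept genes, they read lowest on the hippocampus array after ethanol.
Hmgcs1: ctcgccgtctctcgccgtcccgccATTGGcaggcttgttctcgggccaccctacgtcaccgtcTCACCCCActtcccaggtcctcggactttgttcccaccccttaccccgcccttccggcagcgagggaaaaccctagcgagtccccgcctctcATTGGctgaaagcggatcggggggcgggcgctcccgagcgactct
Srebf2: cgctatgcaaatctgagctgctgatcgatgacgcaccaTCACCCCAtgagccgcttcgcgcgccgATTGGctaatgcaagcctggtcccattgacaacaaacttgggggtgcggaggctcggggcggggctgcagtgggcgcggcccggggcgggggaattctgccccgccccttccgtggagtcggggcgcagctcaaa
Idi1: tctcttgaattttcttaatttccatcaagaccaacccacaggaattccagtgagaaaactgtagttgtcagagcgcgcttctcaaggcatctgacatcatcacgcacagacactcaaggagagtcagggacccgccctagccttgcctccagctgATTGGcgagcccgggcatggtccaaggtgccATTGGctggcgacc
Insig1: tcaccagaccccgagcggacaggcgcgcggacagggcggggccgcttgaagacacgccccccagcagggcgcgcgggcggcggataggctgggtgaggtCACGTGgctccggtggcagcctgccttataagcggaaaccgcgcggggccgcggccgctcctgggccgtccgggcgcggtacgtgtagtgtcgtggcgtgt
Hsd17b7: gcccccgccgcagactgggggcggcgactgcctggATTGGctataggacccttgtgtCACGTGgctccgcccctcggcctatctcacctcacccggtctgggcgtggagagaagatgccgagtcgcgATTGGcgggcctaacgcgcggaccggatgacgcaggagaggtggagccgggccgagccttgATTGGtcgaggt
Elovl5: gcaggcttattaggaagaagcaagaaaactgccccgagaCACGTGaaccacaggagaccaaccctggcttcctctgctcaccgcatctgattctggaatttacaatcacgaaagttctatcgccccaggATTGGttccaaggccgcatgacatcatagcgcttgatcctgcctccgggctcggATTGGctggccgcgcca

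CCAAT was present in 24 of the 28 promoters (85.7%), against 41.1% of 27025 genes with a promoter in the table and 42.9% of the kept genes with one. It was in 14 of 14 sterol arm promoters, 6 of 9 fatty acid arm promoters and 4 of 5 SREBP control promoters. TCACNCCA was in 3 of 28 (10.7%), those of Hmgcs1 (first base at -137), Msmo1 and Srebf2 (first base at -162), against 4.97% of all genes and 4.44% of the kept genes. CACGTG was in 6 of 28 (21.4%), those of Dhcr7, Elovl5, Hsd17b7, Insig1, Sc5d and Scap, against 8.09% of all genes and 12% of the kept genes. The motifs do not overlap one another in the printed stretches, and a match is a match of letters only.

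**Figure D1:**
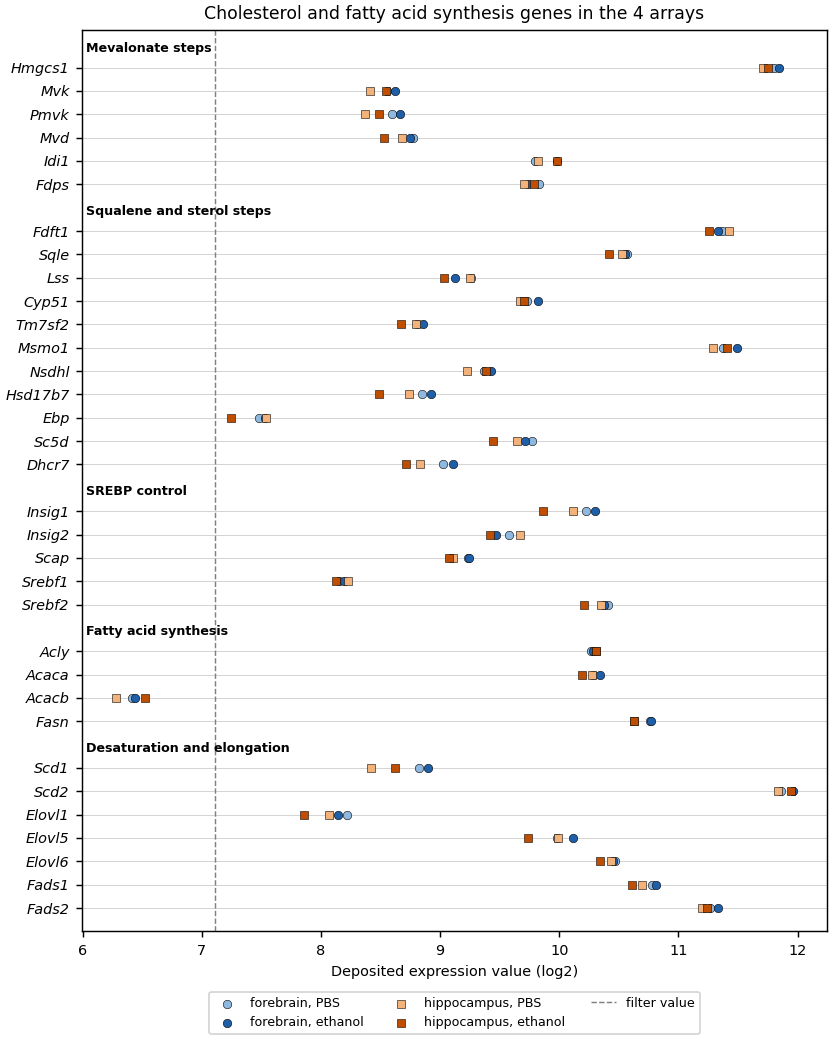
Deposited log2 expression values (horizontal axis) of the 33 genes with a probe set on the 4 arrays, by step of the pathway. Each point is 1 array; circles are forebrain and squares hippocampus, pale after PBS and dark after ethanol, and the dashed line is the filter value of 7.11, below which Acacb lies. Most genes differ little between the arrays. The hippocampus array after ethanol is lowest for 20 of the 32 kept genes, and for 50.2% of all kept genes. When arrays are centred it is lowest for 12 of the 32, and hippocampus after PBS for 15.

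On the hippocampus arrays, most mevalonate genes read higher after ethanol and most squalene and sterol genes lower. Of the 6 mevalonate genes 5 were higher (median 0.10), where 30.7% of all kept genes were. Of the 11 squalene and sterol genes 8 were lower (72.7%, median -0.13), which is near the 69.3% of all kept genes that were lower (median -0.08). The difference between these medians was 0.23, and it was 0.26 after quantile normalization; centring leaves it as it is. The same counts, 5 of 6 and 8 of 11, were found after centring and after quantile normalization, where 43.6% and 54.8% of all kept genes were lower. This split was described after the values had been seen. It was not there in forebrain, where the medians were both 0.05.

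Among the mevalonate genes, Idi1, the isomerase of isopentenyl diphosphate, read 9.80 after PBS and 9.98 after ethanol in forebrain, and 9.82 and 9.98 in hippocampus. Both ethanol arrays were above both PBS arrays, by 0.18 in forebrain and 0.16 in hippocampus. A second Idi1 probe set had differences of 0.27 and 0.24. Mvk and Pmvk, the kinases that phosphorylate mevalonate, were 0.13 and 0.12 higher after ethanol in hippocampus. Pmvk read 8.60 after PBS and 8.66 after ethanol in forebrain, and 8.37 and 8.49 in hippocampus. Hmgcs1, the synthase of HMG-CoA, differed by 0.04 in each tissue (-0.02 in forebrain after quantile normalization). Fdps, which makes farnesyl diphosphate, read 9.83, 9.74, 9.70 and 9.79 in the same order of arrays. It was lower after ethanol in forebrain by 0.09 and higher in hippocampus by 0.08. Mvd, the decarboxylase, was the exception among the 6, at -0.15 in hippocampus.

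Among the squalene and sterol genes, Ebp, the sterol isomerase gene, had the lowest ethanol difference in hippocampus. Its values were 7.48 after PBS and 7.53 after ethanol in forebrain, and 7.54 and 7.25 in hippocampus. The last array stood below the other arrays, 1.23-fold under hippocampus after PBS, at a level close to the filter. Hsd17b7, a ketosteroid reductase of the sterol ring, read 8.85, 8.92, 8.74 and 8.48, with hippocampus after ethanol again lowest and forebrain after ethanol highest. Lss, which closes squalene epoxide into lanosterol, read 9.26, 9.13, 9.25 and 9.04. Both Lss ethanol values lay below both PBS values, by 0.14 in forebrain and 0.22 in hippocampus. Sc5d, a sterol desaturase gene, read 9.77, 9.71, 9.65 and 9.44, and Dhcr7, whose enzyme carries out a last reduction on the way to cholesterol, read 9.03, 9.11, 8.83 and 8.72. In both genes the hippocampus array after ethanol was lowest. Msmo1, a methylsterol oxidase gene, was 0.12 higher after ethanol in both tissues, and Nsdhl, which acts in the same demethylation, was 0.16 higher in hippocampus and 0.06 in forebrain. The demethylase gene Cyp51 was 0.03 and 0.09 higher. Fdft1, the squalene synthase gene, was 0.17 lower in hippocampus and 0.03 lower in forebrain, and its second probe set differed by -0.14 and 0.12. Sqle, the epoxidase gene, and Tm7sf2, a sterol reductase gene, were 0.11 and 0.13 lower in hippocampus.

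All 5 SREBP control genes read lower after ethanol in hippocampus (median -0.15), where 69.3% of all kept genes did (median -0.08); after centring 3 of 5 and after quantile normalization 4 of 5 were lower. Insig1, whose transcript is itself an SREBP target, read 10.22 after PBS and 10.30 after ethanol in forebrain, and 10.12 and 9.86 in hippocampus. The last array was 0.25 below its PBS partner, while the forebrain difference was 0.08 upwards. Insig2, its paralog, read 9.58, 9.47, 9.67 and 9.42, and both ethanol values were below both PBS values. Srebf2, encoding the SREBP that mainly drives the sterol arm, read 10.41, 10.38, 10.35 and 10.21. Srebf1, encoding the SREBP that mainly drives the fatty acid arm, read 8.15, 8.20, 8.22 and 8.13, and Scap read 9.24, 9.24, 9.11 and 9.08. Neither Srebf1 nor Scap differed by more than 0.10 between treatments of a tissue.

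The fatty acid synthesis genes differed little. Acly, which supplies cytosolic acetyl-CoA, lay between 10.27 and 10.31 on the 4 arrays, and Fasn, the fatty acid synthase gene, between 10.62 and 10.77, with ethanol differences of -0.00 in hippocampus (0.10 when centred) and 0.01 in forebrain (below 0 after quantile normalization). Acaca, encoding the carboxylase that commits acetyl-CoA to fatty acids, was 0.08 lower in hippocampus (higher when centred) and 0.06 higher in forebrain. Its second probe set was higher in both, by 0.04 and 0.14.

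The desaturases and elongases went different ways in hippocampus. Scd1, a stearoyl-CoA desaturase gene, read 8.82 after PBS and 8.90 after ethanol in forebrain, and 8.42 and 8.62 in hippocampus. Both hippocampus values were below both forebrain values, and the ethanol difference in hippocampus was 0.20. Scd2, the main stearoyl-CoA desaturase gene of brain, was 0.11 higher after ethanol in hippocampus and 0.10 in forebrain. Elovl5, which elongates polyunsaturated fatty acids, read 9.98, 10.11, 9.99 and 9.74, so that forebrain after ethanol was highest and hippocampus after ethanol lowest. Elovl1, an elongase of very long saturated chains, read 8.22, 8.14, 8.07 and 7.86. Elovl6, which elongates palmitate, and Fads1, a desaturase of polyunsaturated fatty acids, were both 0.09 lower in hippocampus (higher when centred), and Fads2, a further such desaturase, was 0.05 higher.

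**Figure D2:**
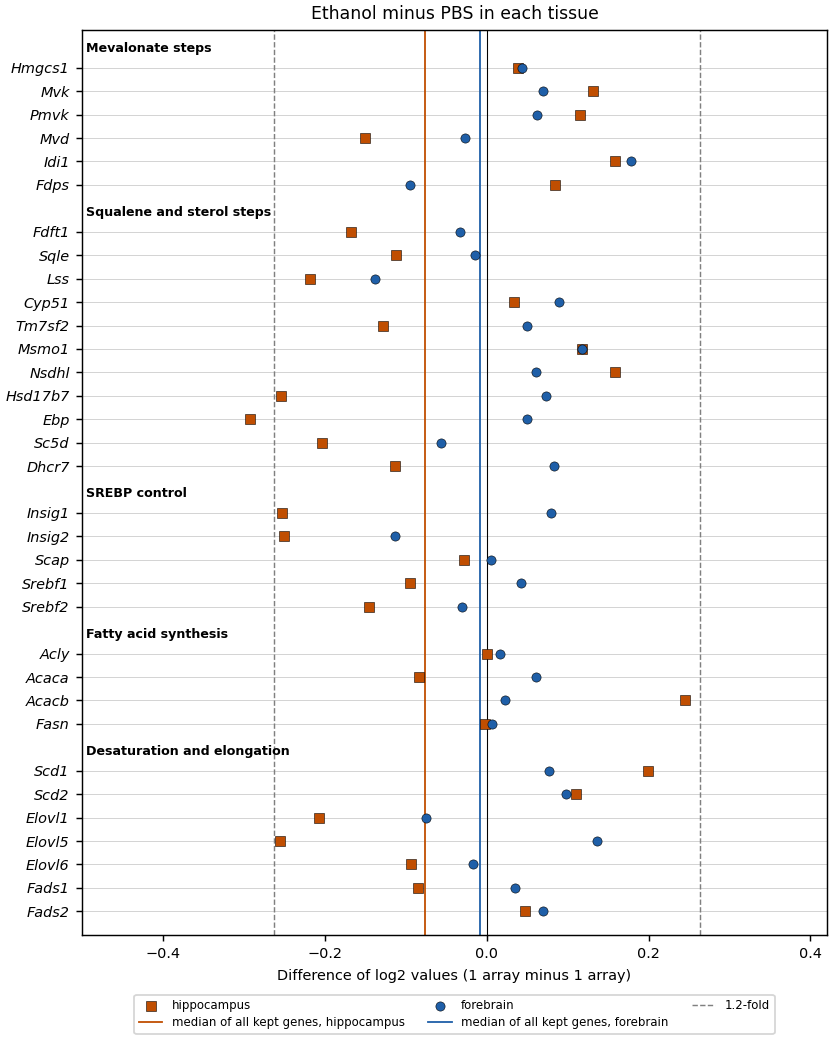
Ethanol minus PBS in log2 (horizontal axis) for each gene in hippocampus (squares) and forebrain (circles), each from 1 array minus 1 array. Solid lines are the medians of all kept genes, -0.08 in hippocampus and -0.01 in forebrain, and dashed lines mark 1.2-fold; only Ebp in hippocampus lies beyond a dashed line among kept genes.

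Counted together, 12 of 32 genes were higher after ethanol in hippocampus (37.5%), and 30.7% of all kept genes were above 0. The median was -0.09 against -0.08 over all kept genes, and after centring 18 of 32 were higher with a median of 0.01 against 0.02. At least 1.2-fold (a log2 difference of 0.263), 0 genes were higher and 1 was lower, Ebp, against 4.49% and 11.2% of all kept genes. In forebrain 22 of 32 were higher after ethanol (68.8%), against 46.1% of all kept genes, with a median of 0.05 against -0.01. The count was 24 after centring and 19 after quantile normalization. No forebrain difference reached 1.2-fold, which 0.699% of all kept genes did upwards and 0.508% downwards. The SD of the differences over the 32 genes was 0.146 in hippocampus and 0.0729 in forebrain, and over all kept genes it was 0.187 and 0.0941.

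The hippocampus and forebrain ethanol differences come from separate arrays. They had the same sign for 20 of 32 genes (62.5%), against 61.4% of all kept genes. In 11 genes both tissues read higher after ethanol (34.4%), against 19.1% of all kept genes, and in 9 both read lower (28.1%), against 42.3%. When centred 17 read higher in both and 7 lower in both, against 36.4% and 24.5% of all kept genes, and after quantile normalization 10 and 9, against 25.8% and 35.1%. Among the 11 were Idi1, Scd1, Scd2, Nsdhl and Msmo1, and among the 9 were Lss, Insig2, Elovl1 and Sc5d. Elovl5, Ebp, Insig1, Hsd17b7, Dhcr7 and Fdps had opposite signs. The ethanol difference in hippocampus minus that in forebrain was above 0 for 6 of 32 genes, against 32.5% of all kept genes, and at least 1.2-fold upwards for 0 (4.27% of all kept genes) and downwards for 4 (12.5%; 9.94% of all kept genes). The 4 were Elovl5 (-0.39), Ebp (-0.34), Insig1 (-0.33) and Hsd17b7 (-0.33). When centred 15 of 32 were above 0, against 54.6% of all kept genes, with 2 past 1.2-fold downwards and a median of -0.0092 in place of -0.09. After quantile normalization 13 of 32 were above 0, against 49.3%, with 3 past 1.2-fold downwards.

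Over both tissues, limma with treatment and tissue as terms called none of the 32 genes for ethanol at an adjusted p (Benjamini-Hochberg) of 0.05, and 0 of all 11013 in either direction (0% higher and 0% lower). Residual degrees of freedom number only 1, and the error is how far the ethanol differences of the tissues disagree. A p-value here rests on that disagreement and on variance shared over genes, and not on replicates. At an unadjusted p under 0.05 it held 3 genes higher, Idi1, Msmo1 and Scd2, against 3.41% of all kept genes, and 2 lower, Lss and Insig2, against 6.36%. Idi1 had a limma coefficient of 0.17 (SE 0.06) with an adjusted p of 0.51. Insig2 had -0.18 (SE 0.07) and Lss -0.18 (SE 0.07), both also with an adjusted p of 0.51. Over the other settings the lowest adjusted p among the 32 lay between 0.24 and 0.618. Without the trend in the variance, 1 gene had an unadjusted p under 0.05, and after quantile normalization 6 had. The share of all kept genes was not taken in those settings.

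In the comparison of tissues, most genes of both arms read lower in hippocampus than in forebrain. After PBS 7 of 32 were above 0, against 52.4% of all kept genes, with a median of -0.07 against 0.01. After centring 9 of 32 were above 0, against 55.5% of all kept genes, and after quantile normalization 5 of 32, against 45.8%. At least 1.2-fold lower was 1 gene, Scd1 at -0.40 (3.12% of the genes, against 6.46% of all kept genes), and 0 were as much higher, against 3.16%. After ethanol 3 of 32 were above 0, Idi1, Fdps and Acly, against 30.4% of all kept genes, with a median of -0.14 against -0.06. After centring 10 of 32 were above 0, against 57.6% of all kept genes, and after quantile normalization 4 of 32, against 43.1%. The 2 comparisons use different arrays, but each shares its arrays with the ethanol comparisons.

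After ethanol 8 genes were at least 1.2-fold lower in hippocampus than in forebrain (25% of the genes, against 9.85% of all kept genes), and 0 were as much higher, against 2.15%. They were Insig1 (-0.44), Hsd17b7 (-0.44), Dhcr7 (-0.39), Elovl5 (-0.38), Ebp (-0.28), Elovl1 (-0.28), Scd1 (-0.28) and Sc5d (-0.27). These came from the late sterol steps, SREBP control and the desaturases and elongases, and none from the mevalonate steps. All 11 squalene and sterol genes and all 7 desaturation and elongation genes read lower in hippocampus in this comparison and after quantile normalization. When centred, 8 of 11 and 6 of 7 did. Of all kept genes 69.6% read lower here, 56.9% after quantile normalization and 42.4% when centred. At least 1.2-fold lower when centred were 4 genes, Insig1, Hsd17b7, Dhcr7 and Elovl5, against 453 of all 11013 kept genes. After quantile normalization these and Ebp were, against 689 of 11013. Of the 6 kept genes with CACGTG in the promoter, 5 were among the 8, and of the 20 without it 2 were. Over all kept genes with a promoter the shares past 1.2-fold were 9.74% with the motif and 9.53% without it. That pairing was noticed after the values had been seen and has no test.

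**Figure D3:**
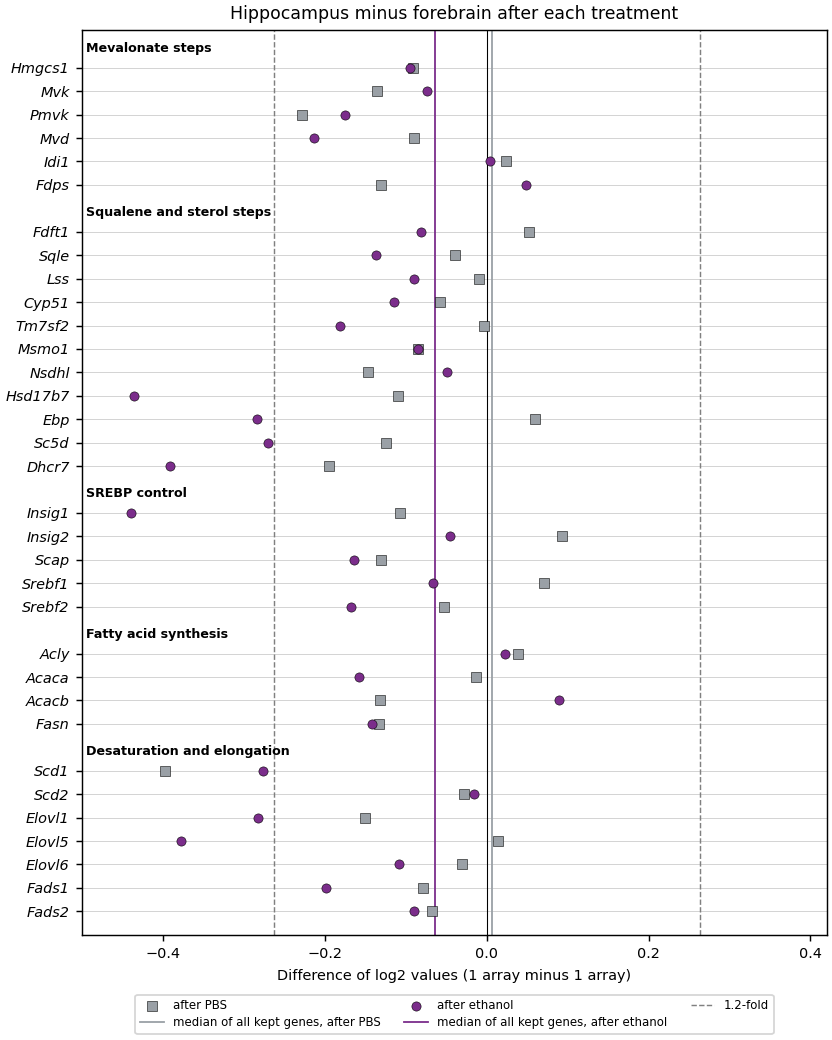
Hippocampus minus forebrain in log2 (horizontal axis) for each gene after PBS (squares) and after ethanol (circles), each from 1 array minus 1 array. Solid lines are the medians of all kept genes (0.01 after PBS, -0.06 after ethanol) and dashed lines mark 1.2-fold; 8 kept genes lie beyond the lower dashed line after ethanol, and 1 after PBS.

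In the limma fit the tissue coefficient was below 0 for 28 of 32 genes (median -0.10, against -0.03 over all kept genes), and no gene passed the adjusted p of 0.05. Of all kept genes, 0.109% were called higher and 1.02% lower in hippocampus. At an unadjusted p under 0.05, 10 of the 32 were lower (31.2%, against 11.9% of all kept genes) and 0 higher (against 3.27%). With centred arrays 5 had an unadjusted p under 0.05, and after quantile normalization 13. The share of all kept genes was not taken on those scales, so these counts cannot be set against it. Scd1 came nearest, with a tissue coefficient of -0.34 (SE 0.08) and a limma adjusted p of 0.109. That adjusted p was 0.0469 after quantile normalization and ranged over the other settings from 0.076 to 0.168. Dhcr7 had -0.29 (SE 0.08) with an adjusted p of 0.158, Insig1 -0.27 (SE 0.09) with 0.195, and Hsd17b7 -0.27 (SE 0.10) with 0.243. The others of the 10 were Hmgcs1, Pmvk, Sc5d, Fasn, Elovl1 and Fads1, of which Elovl1 had -0.22 (SE 0.08) and Pmvk -0.20 (SE 0.08), both with a limma adjusted p of 0.284.

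Across the 4 arrays, forebrain after ethanol was the highest array for 18 of 32 genes (56.2%), against 25.3% of all kept genes. Hippocampus after ethanol was the lowest for 20 of 32 (62.5%), against 50.2% of all kept genes. After centring that was 12 of 32 against 21.7%, and after quantile normalization 16 of 32 against 34.6%. Hippocampus after PBS was the lowest for 10 of 32 (31.2%, against 19.9%). When centred it was the array most often lowest, for 15 of 32 (46.9%, against 28.9%). After quantile normalization it was lowest for 13 of 32, against 28.7%. The count of genes highest in forebrain after ethanol was 17 of 32 under both rescalings, against 21.1% and 23.2%. Forebrain after ethanol was the lowest array for none of the 32, against 16.7% of all kept genes; it was so for 2 of 32 when centred (against 23.6%) and for 2 of 32 after quantile normalization (against 21.9%).

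In hippocampus the median ethanol difference was -0.11 in the sterol arm and -0.04 in the fatty acid arm. When centred the medians were -0.01 and 0.06, with 8 of 10 fatty acid genes higher in place of 4 of 10. The gap of -0.07 was -0.01 with means in place of medians, -0.03 after quantile normalization, -0.10 with the mean of a gene's probe sets, and -0.11 with the stricter filter and without a filter. In forebrain both medians were 0.05. Between tissues, the arms had medians of -0.09 and -0.05 after PBS and -0.12 and -0.15 after ethanol. The spread within the sterol arm in hippocampus, from -0.29 for Ebp to 0.16 for Nsdhl, was wider than the gap between the arms. No test applies to these gaps, since genes of an arm are not replicates.

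**Figure D4:**
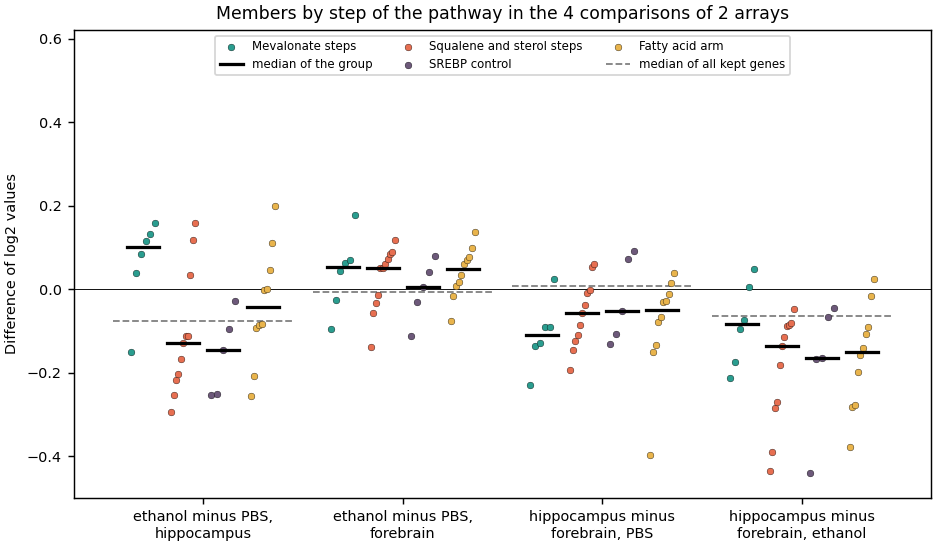
Difference of log2 values (vertical axis) of each kept gene in the 4 comparisons of 1 array with 1 array, by step of the pathway. Points are genes, black bars the group medians and dashed lines the medians of all kept genes; in hippocampus the mevalonate median is 0.10 and the squalene and sterol median -0.13, while in forebrain both are 0.05.

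Genes of related pathways gave no limma call for ethanol or tissue on any of 6 lists. Their counts stand against 69.3% of all kept genes lower after ethanol in hippocampus and 53.8% in forebrain, or 43.6% and 44.4% when centred. SREBP processing and degradation genes were lower after ethanol in hippocampus for 8 of 8 (median -0.13; 5 of 8 after centring, 8 of 8 after quantile normalization) and for 4 of 8 in forebrain. Among them were Paqr3, which tethers SCAP at the Golgi (-0.28), Fbxw7, which marks nuclear SREBPs for degradation (-0.25), and Erlin1 (-0.19). Of 19 kept genes of sterol uptake, transport, storage and efflux, 13 were lower in hippocampus after ethanol (68.4%, median -0.11) and 11 in forebrain; when centred these counts were 11 and 7. The exception in size was Apoe, the main apolipoprotein of brain. It read 10.31 after PBS and 10.43 after ethanol in forebrain, and 10.00 and 10.55 in hippocampus, a hippocampus difference of 0.55. Gramd1b, a sterol transporter of the endoplasmic reticulum, differed by -0.45 in hippocampus and -0.00 in forebrain, and Stard3, a sterol carrier of endosomes, by -0.35 and -0.20.

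Of 8 non-sterol isoprenoid genes 4 were lower in each tissue after ethanol (3 in hippocampus when centred), with Pggt1b and Pdss2 both at -0.28 and Dhdds at -0.10 in hippocampus. Of 18 other genes of fatty acid activation, elongation and supply, 7 were higher in hippocampus and 13 in forebrain, but 16 and 14 after centring. Elovl2, an elongase of polyunsaturated chains, was at -0.34 in hippocampus, Me1, the malic enzyme gene that supplies NADPH, at 0.19 in each tissue, and Fads6 at 0.21 in hippocampus. Of 14 fatty acid oxidation genes 5 were higher in each tissue, and in hippocampus 9 after centring. Among them Cpt1a, which admits fatty acids to mitochondria, was at -0.26, the carrier gene Slc25a20 at -0.21 and the dehydrogenase gene Acadl at 0.06 in hippocampus. The 3 final sterol and HMG-CoA step genes, Cyb5r3, Acat1 and Erg28, were lower after ethanol in both tissues, with medians of -0.05 and -0.07; in hippocampus 2 of 3 were higher after either rescaling.

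Markers of several cell types differed along with these comparisons, and their part in the results was not tested. Of all kept genes, 69.3% read lower after ethanol in hippocampus and 53.8% in forebrain (43.6% and 44.4% when centred). Lower in hippocampus than in forebrain were 47.5% after PBS and 69.6% after ethanol (44.5% and 42.4% when centred). Astrocytes, a main source of cholesterol in the mature brain, have 9 kept markers, with Apoe among them. They were higher after ethanol in hippocampus for 8 of 9 genes (median 0.20), with summed linear levels of 7119 after PBS and 8208 after ethanol in hippocampus and of 8246 and 8717 in forebrain. Between tissues, 1 of the 9 was higher in hippocampus after PBS (median -0.25) and 4 after ethanol (median -0.0057), or 2 and 6 when centred. Limma called only 1 of the 9 for tissue, the gap junction gene Gja1, lower in hippocampus (limma coefficient -0.93, SE 0.07, adjusted p 0.0175). Proliferating cell markers were higher in hippocampus after PBS for 6 of 6 genes, with sums of 2620 in hippocampus and 2036 in forebrain, and after ethanol the sums were 2247 and 1929. Within hippocampus 6 of 6 were lower after ethanol (5 of 6 when centred). Meningeal fibroblast markers were lower in hippocampus for 7 of 7 kept genes after both treatments, and limma called 4 of them. Their sums, over all 9 markers with a probe set, were 1851 against 3873 after PBS and 2342 against 3503 after ethanol. Within hippocampus 6 of 7 were higher after ethanol (median 0.38; 7 of 7 when centred). Endothelial markers were lower in hippocampus for 7 of 8 after PBS and 8 of 8 after ethanol, and microglia and macrophage markers for 4 of 4 after both (3 of 4 after ethanol when centred). Of these 4, Mrc1 was at -1.16 after PBS, while Cx3cr1, Csf1r and C1qa lay between -0.09 and -0.25. For tissue limma also called Mrc1 and the oligodendrocyte lineage gene Pdgfra lower in hippocampus. It called Mki67 (proliferating cells), Ttr (choroid plexus) and Ebf1 (ganglionic eminence and striatum) higher. Oligodendrocyte lineage markers were higher after ethanol for 4 of 7 in hippocampus (7 of 7 when centred) and 6 of 7 in forebrain. Choroid plexus markers were higher in hippocampus after PBS for 5 of 5 and after ethanol for 3 of 5 (4 of 5 when centred), and within hippocampus 5 of 5 were lower after ethanol (median -0.26). Cortex markers were lower after ethanol for 3 of 4 in hippocampus and 4 of 4 in forebrain, and the single erythroid marker kept differed by -0.04 in hippocampus (0.06 when centred) and -0.19 in forebrain. The lowest mean log2 value of a listed marker was 5.64, an erythroid one, so none was at 0.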

How the data were processed

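Total RNA was extracted with Trizol and 6 ug of it made into biotinylated cRNA for Affymetrix mouse gene arrays, per the labels' protocols. The submitters' processing notes name MAS5; version, background correction and normalization: not given in the sources used here. Deposited values are the authors' log2 expression values, a scale read from their range of 1.58 to 13.96. Groups came from sample titles.

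Of 35557 probe sets, 21789 carried 1 gene symbol in the platform annotation and only these were named. Per gene the probe set with the highest mean over the 4 arrays was used, and genes at or above the median of probe set means (7.11) were kept. A pair of arrays was compared by the difference of log2 values, with no test. Over all arrays limma 3.58.1 (R 4.3.3) was run with additive terms for treatment and tissue, a variance trend and Benjamini-Hochberg adjustment over 11013 genes; it was tested on simulated data. Other steps used pandas 2.3.3, numpy 2.4.6 and matplotlib 3.10.9 in Python 3.11.15. Members, related lists and marker lists were chosen with earlier results of these data known.

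Every array value is given for the up to 6 members with the largest treatment, tissue and tissue-by-treatment differences and for Insig1, Insig2, Scap, Srebf1 and Srebf2, and at most 3 genes are named per related list. Alternatives were centred arrays, quantile normalization, a stricter filter and none, the mean of a gene's probe sets, no variance trend, other fold thresholds, and means in place of medians.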

Additional observations from a re-analysis of the deposited data

Results flagged for a closer look

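In 7 of the 32 genes (21.9%), against 13.3% of all kept genes, the ethanol differences of hippocampus and forebrain had opposite signs and were both at least 0.05 on the log2 scale. With 1 array per group the difference between the tissues was not tested. The hippocampus difference minus the forebrain difference was -0.39 for Elovl5, -0.34 for Ebp, -0.33 for Insig1, -0.33 for Hsd17b7, -0.20 for Dhcr7 and -0.145 for Acaca. For Fdps it was 0.18, the opposite direction. With arrays centred the Acaca difference in hippocampus was above 0 (0.02), and after quantile normalization it was -0.03. Its second probe set read higher after ethanol in both tissues. The Dhcr7 difference in hippocampus was -0.01 when centred and -0.04 after quantile normalization. Neither gene therefore reached the 0.05 of this flag on either rescaled scale, and the share of all kept genes was taken on deposited values only.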

How the results depend on the processing

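With arrays centred, the median ethanol difference in hippocampus moved from -0.09 to 0.0097, the members at least 1.2-fold higher there from 0 to 1 and those lower from 1 to 0, and in the tissue comparison after ethanol the members lower by 1.2-fold went from 8 to 4 and the median from -0.139 to -0.0501. Quantile normalization gave 1 higher and 0 lower in hippocampus, 5 lower after ethanol between tissues, and 1 limma tissue call in place of 0. The stricter filter left 0 lower in hippocampus, because it removed Ebp. At 1.5-fold and at 2-fold 0 members were lower in any of these comparisons. With means the gap between the arms in hippocampus went from -0.07 to -0.0102, and over the other settings it lay between -0.03 and -0.11. Of the 32 limma coefficients, centring changed the sign of 8 for ethanol and 3 for tissue, quantile normalization of 6 for ethanol, and the mean of all probe sets of 1 each. Over all kept genes limma called 124 genes for tissue, with 423 after quantile normalization, 66 with centred arrays, 37 without a filter and 27 without the trend. For ethanol it called 0 genes, with 14 after quantile normalization, 7 with the stricter filter and 2 with centred arrays. No replicate can be left out with 1 array per group, and precision is limited by the small number of arrays.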
